A study of Homo sapiens with 4 samples.

Results

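Expression of genes of mitosis and chromosome segregation was compared in SK-N-AS, a human neuroblastoma line in long-term culture, with and without the compound BG-P400-TAT. The members were 45 listed genes, and all 45 were measured, each by 1 probe set, among 17687 gene symbols on the array. The rule named symbols and used no measured value, but the list was drawn up with earlier results of these data known. Untreated cells received phosphate-buffered saline (PBS) and treated cells BG-P400-TAT at 30 µM, both for 48 h, with 2 arrays in each group. Both groups came from this 1 line, grown in IMDM with serum. The title describes the compound as acting on the norepinephrine transporter and on the integrin αvβ3, and the design text asks about its anticancer effect. The design text calls the replicates biological without saying how cultures were kept apart, and the tests measure only the spread between these arrays.

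In mitosis, cyclin B bound to the kinase CDK1 drives condensation of the chromosomes and assembly of the spindle, and the polo-like and Aurora kinases act beside it. Kinetochores built on centromeric chromatin attach chromosomes to microtubules, and the spindle checkpoint holds back the anaphase-promoting complex until attachment is complete. Activation of that complex by CDC20 then leads to the loss of securin and cyclin B and to the cutting of cohesin by separase. Most of these genes are transcribed late in the cell cycle, so their summed RNA level in a culture follows both the number of dividing cells and the RNA per dividing cell, which cannot be told apart in these bulk samples.

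A sequence feature that the rule did not use is shown before the expression values. The cell cycle genes homology region (CHR), bound by the MuvB complex through LIN54, was searched as TTTGAA or TTCGAA, and the motif of the factor NF-Y as CCAAT, on both strands from 250 bases before to 50 bases after each RefSeq start (GRCh38.p14). Promoter sequences were matched for 39 of the 45 members, 4 of which had several starts. AURKA, BIRC5, BUB3, TPX2, TTK and UBE2C had no entry in the table used. CHR letters were in 29 of the 39 members (74.4%), against 17.5% of the 14250 array genes with an entry, counting a gene if any of its starts held the letters. The letters of the NF-Y motif were in 33 of the 39 members (84.6%), against 42.3% of those array genes, and both motifs were in 25 members (64.1%) against 7.30%. Counted per window of 300 bases, CHR letters were in 31 of 45 member windows and in 16.4% of all 35116 windows, and NF-Y letters in 37 and in 34.6%. The members' CHR matches began at a median of -28 bases from the start, and 20 members had one within the last 60 bases before it.

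The stretches below are the last 100 bases before the RefSeq start, 5′ to 3′ on the coding strand. They are shown for the 5 members with a single start that had both motifs inside this stretch and whose treated and untreated values did not overlap. CENPE, which had none of the searched letters in the window and the largest negative difference of the members, is added as an example without them. Other forms of the CHR were not searched. The choice used the expression values, so the stretches cannot show whether motifs go with direction. KIF18A, with both motifs, also had a negative difference (-0.30). Capitals mark the motifs, read on either strand.
CDC20: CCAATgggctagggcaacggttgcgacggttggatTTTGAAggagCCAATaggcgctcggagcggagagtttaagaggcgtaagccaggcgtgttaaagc
CDCA8: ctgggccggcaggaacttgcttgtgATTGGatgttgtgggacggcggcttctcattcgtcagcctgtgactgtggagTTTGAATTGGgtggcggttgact
ESPL1: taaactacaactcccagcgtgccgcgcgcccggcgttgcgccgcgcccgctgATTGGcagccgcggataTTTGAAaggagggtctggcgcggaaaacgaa
KIF18A: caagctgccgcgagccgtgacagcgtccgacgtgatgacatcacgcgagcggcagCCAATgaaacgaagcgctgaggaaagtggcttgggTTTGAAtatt
PLK1: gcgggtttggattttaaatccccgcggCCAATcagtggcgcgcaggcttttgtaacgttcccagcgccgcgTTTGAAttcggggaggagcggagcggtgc
CENPE: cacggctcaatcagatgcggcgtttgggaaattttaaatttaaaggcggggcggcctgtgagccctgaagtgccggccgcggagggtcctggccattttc

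In GRCh38.p14 the CDC20 stretch is chr1:43358881-43358980 (plus strand), CDCA8 chr1:37692416-37692515 (plus), ESPL1 chr12:53268199-53268298 (plus), KIF18A chr11:28108157-28108256 (minus), PLK1 chr16:23678789-23678888 (plus) and CENPE chr4:103198344-103198443 (minus). In CDCA8 the CHR letters at -23 and NF-Y letters at -18 share 1 base, and 2 such overlaps occurred over all member windows. In ESPL1, KIF18A and PLK1 the NF-Y letters lay before the CHR letters, at -48, -45 and -73 against -31, -10 and -29. CDC20 had NF-Y letters at -100 and -55 with CHR letters at -65, and CDCA8 had further NF-Y letters at -75, before its CHR letters. The members with CHR letters had a median log2 fold change (treated minus untreated) of 0.0027, with 16 of 29 positive, and the 10 with an entry but no such letters had -0.063, with 4 positive. These matches describe letters in a window and do not show binding.

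**Figure D1:**
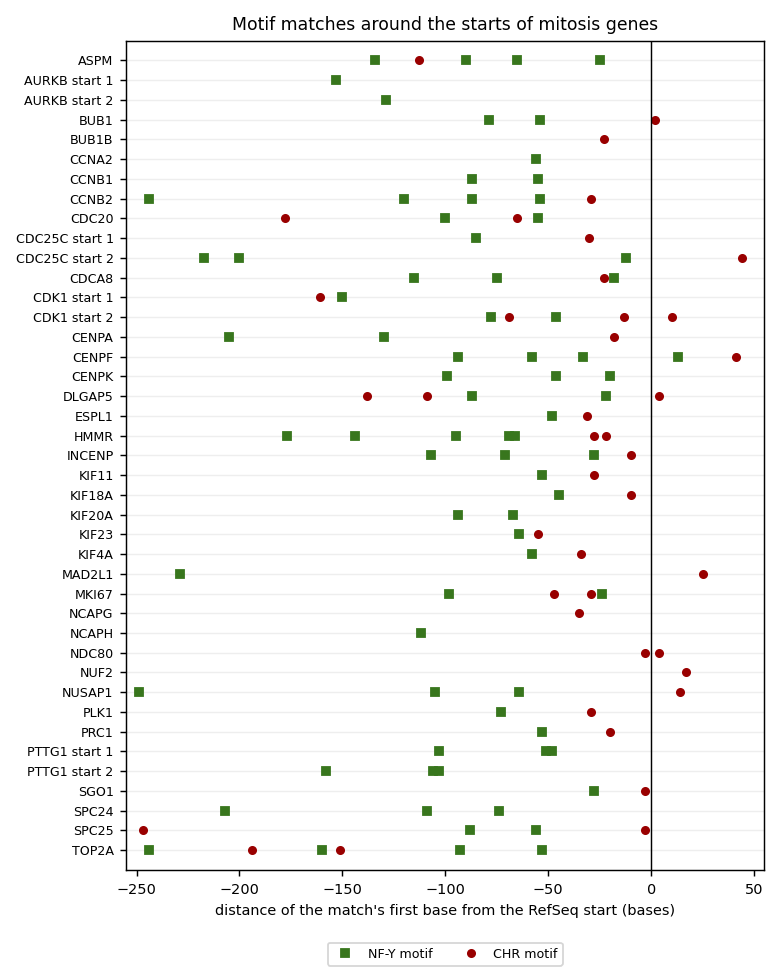
Distance in bases from the RefSeq start (x axis) of the first base of each CHR match (red circles) and NF-Y match (green squares), 1 line per member and start that held a match. CENPE and KIF2C held none, and most CHR matches sit just before the start, at a median of -28.

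All 45 members were above a background limit of 6.96 in log2 expression, which 5% of the negative control probe sets exceeded, as means over the 4 arrays. On single arrays, set against each array's own limit, AURKB was the exception and passed on 3 of 4. Mean log2 expression ran from 7.48 for AURKB to 14.38 for PLK1. Probe sets differ in how strongly they bind their targets, so this is a range of signals and not an order of transcript amounts. As a check of the label, 16 of 18 measured neuroblastoma and mesenchymal identity markers lay above the background limit; of the catecholamine enzyme genes, TH and DBH did not. Of 17 measured epithelial, leukocyte and endothelial markers 14 lay below it, while PTPRC, CLDN4 and CD68 lay above it. PTPRC, a leukocyte gene, had 12.75 and 12.80 in untreated and 12.71 and 12.57 in treated cells, and CD68, a macrophage gene, 10.58 and 10.73 against 10.73 and 10.78. CLDN4, an epithelial junction gene, had 8.79 and 8.83 against 9.11 and 8.73. The other measured leukocyte markers, CD3E, LYZ and CD14, lay below the limit. Whether the PTPRC probe set is specific to its gene could not be checked, and the part of other cells in the members' values was not tested.

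**Figure D2:**
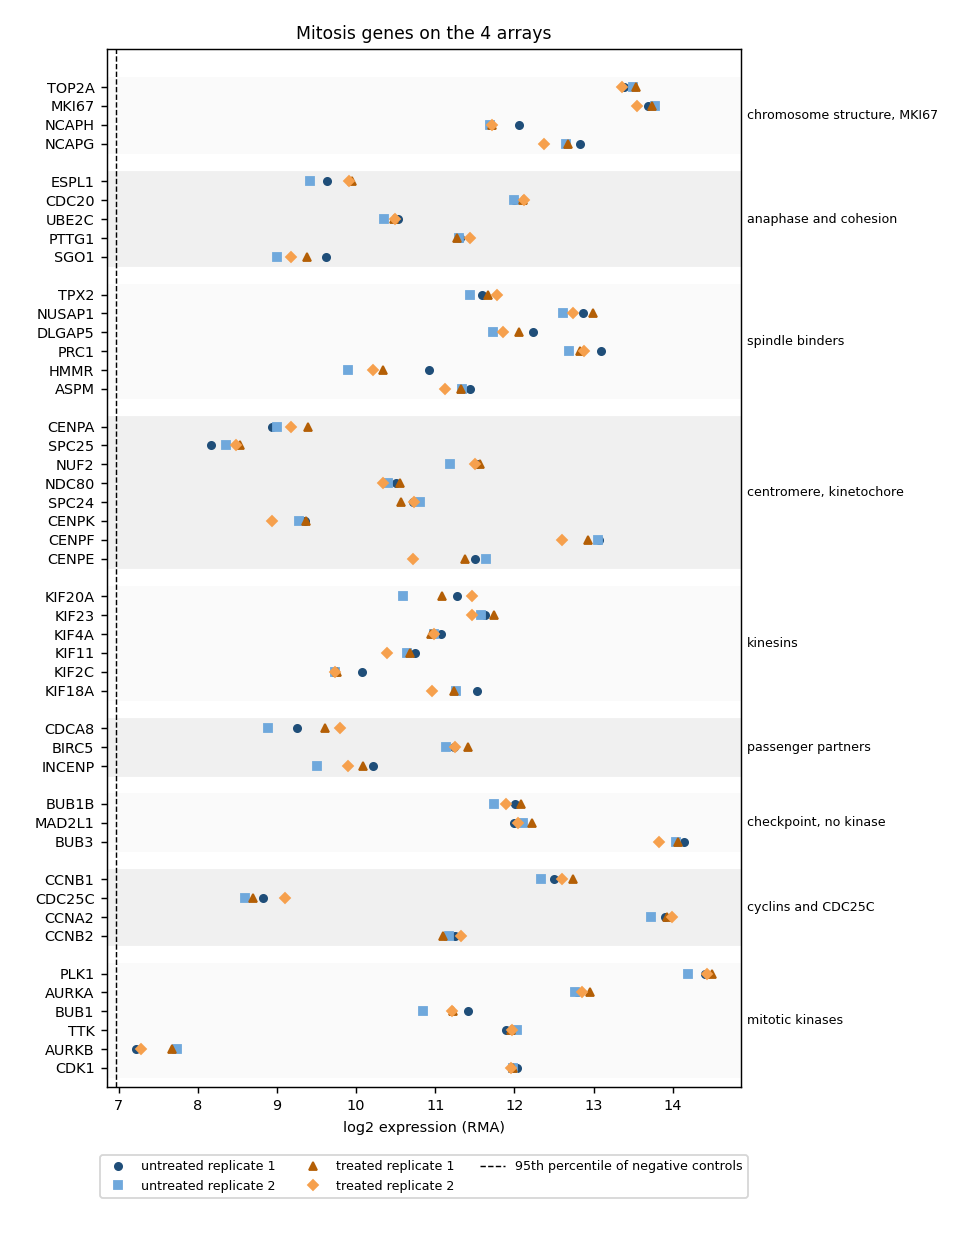
Log2 expression (x axis) of the 45 members on untreated replicate 1 (circles), untreated replicate 2 (squares), treated replicate 1 (triangles) and treated replicate 2 (diamonds), grouped by role; the dashed line is the background limit of 6.96. The symbols of most genes lie close together, and untreated replicate 2 is the lowest of the 4 for 22 genes.

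The 4 arrays differed among themselves for these genes by about as much as the groups did: the median absolute log2 difference was 0.167 between the untreated arrays, 0.184 between the treated ones and 0.143 to 0.185 between arrays of different groups. Untreated replicate 2 was the lowest array for 22 of the 45 members, treated replicate 2 for 13, untreated replicate 1 for 6 and treated replicate 1 for 4. Of the 8722 named genes above background, these arrays were the lowest for 3369, 2109, 2041 and 1203, in the same order. The median deviation of the members from their own 4-array mean was 0.052 on untreated replicate 1, -0.082 on untreated replicate 2, 0.062 on treated replicate 1 and -0.028 on treated replicate 2, on the log2 scale. Untreated replicate 2 lay below untreated replicate 1 for 35 members, with a median difference of -0.10. Treated replicate 2 lay below treated replicate 1 for 31, with a median of -0.13. For the 8722 named genes above background these counts were 5065 and 4827, with medians of -0.058 and -0.029. Over the whole table untreated replicate 2 stood farthest from the others. Its median absolute log2 differences were 0.237 to 0.244, against 0.193 to 0.208 for pairs without it. Its own background limit was also the highest, at 7.64 against 7.19 to 7.31 on the other arrays. On it 8808 probe sets passed that limit, against 9413 to 9657 on the others. Whether this bears on its low member values was not tested. Over the members treated replicate 2 stood farthest, at 0.184 to 0.185 against 0.143 to 0.167 for pairs without it. Values without untreated replicate 2 are given below for part of the members. Among those not given there, AURKB had a log2 fold change of 0.25, TTK 0.062 and UBE2C -0.039 without this array, each turned in sign. CCNB2 (treated mean 11.211, untreated replicate 1 at 11.246) and KIF23 (11.607 and 11.635) also turned without it, to negative.

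**Figure D3:**
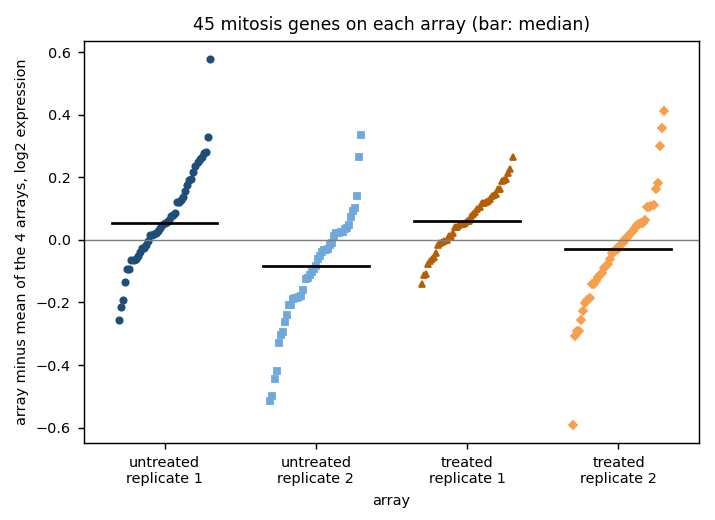
Log2 expression on each array minus the gene's mean over the 4 arrays (y axis) for the 45 members, sorted within each array (x axis); bars are medians. The median is -0.082 on untreated replicate 2 and 0.062 on treated replicate 1.

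No member passed the test of treated against untreated cells (limma, Benjamini-Hochberg adjustment over 21448 probe sets, threshold 0.05), and neither did any other probe set (0% called, smallest adjusted p 0.948). Of the 45 log2 fold changes 24 were positive and 21 negative, with a median of 0.0027, whereas 58.8% of the 8722 named genes above background were positive with a median of 0.040. The members ran from -0.53 for CENPE to 0.64 for CDCA8, and 43 of 45 had a 95% confidence interval inside 2-fold in both directions (95.6%, against 95.7% of the named genes above background). CDCA8 was the only member at an unadjusted p under 0.05, in the higher direction, and no member was in the lower one, where 2.2% and 2.88% of all probe sets were. With only the probe sets above background fitted, CENPE and ESPL1 joined CDCA8. Then 3 of 45 members and 509 of the 9960 probe sets fitted were at that level.

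Both treated arrays lay above both untreated arrays for 11 members, namely AURKA, BIRC5, CCNA2, CCNB1, CDC20, CDCA8, CENPA, ESPL1, PLK1, SPC25 and TPX2. They lay below both for 4, namely ASPM, CENPE, CENPF and KIF18A. Over all probe sets 16.4% lay above and 16.8% below in this way, and among those above background 20.9% and 11.5%. On the deposited values the members' shares were near those of the probe sets above background. The lower count depended on scaling, with 10 members after quantile normalization and 12 after cyclic loess, while the same 11 members stayed higher. After quantile normalization 15.9% of the probe sets above background lay above and 16.1% below, and after cyclic loess 16.2% and 15.9%. Set against untreated replicate 1 alone, 14 members had both treated arrays above and 18 both below, beside 35.6% and 32.1% of probe sets above background.

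**Figure D4:**
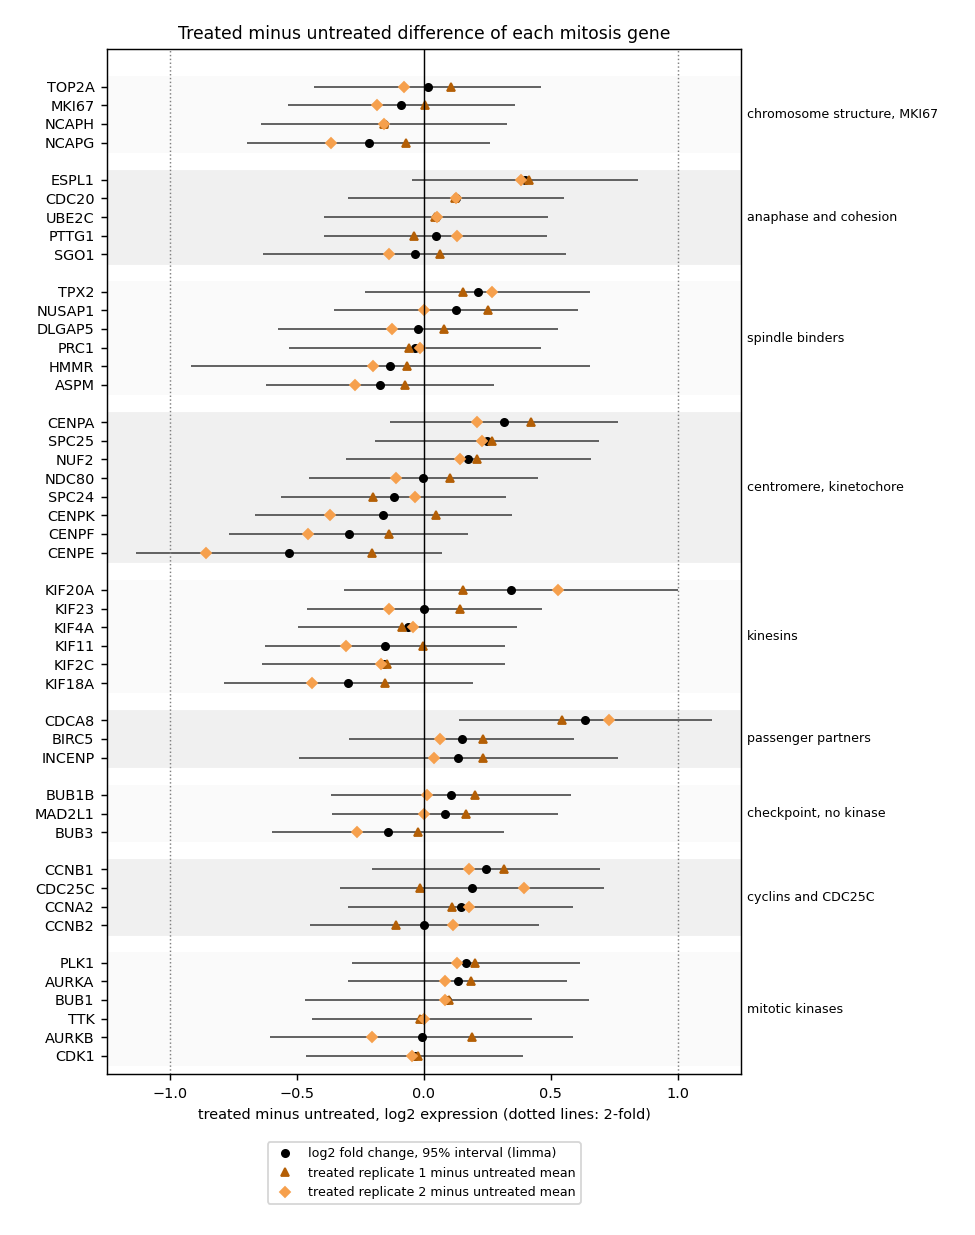
Log2 fold change of each member (black circles) with its 95% confidence interval (lines) and the difference of treated replicate 1 (triangles) and treated replicate 2 (diamonds) from the untreated mean, grouped by role; dotted lines mark 2-fold. The interval of CDCA8 (0.14 to 1.14) is the only one that leaves out 0.

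The kinases as a group differed little. Of the 6 kinase genes 3 had positive and 3 negative log2 fold changes, with a median of 0.042 and a range from -0.036 to 0.17. CDK1, the kinase that drives entry into mitosis, had log2 values of 12.04 and 11.98 on the untreated and 11.98 and 11.96 on the treated arrays, so the groups overlapped within a narrow range. Its log2 fold change was -0.036 (SE 0.18, interval -0.46 to 0.39, limma adjusted p = 0.997). PLK1, the polo-like kinase of centrosome maturation and mitotic entry, had 14.40 and 14.19 against 14.50 and 14.43. Untreated replicate 2 was the low array here, and the log2 fold change of 0.17 (SE 0.19, interval -0.28 to 0.61, limma adjusted p = 0.981) was 0.060 without it. AURKA, the Aurora kinase of spindle poles, had 12.79 and 12.76 against 12.96 and 12.86, and both treated arrays were higher by a mean of 0.13 on the log2 scale (SE 0.18, interval -0.30 to 0.56, limma adjusted p = 0.985). AURKB, the kinase of the chromosomal passenger complex, had 7.22 and 7.74 against 7.67 and 7.27, close to background, and its groups overlapped (log2 fold change -0.0077, SE 0.25, interval -0.60 to 0.59, limma adjusted p = 0.999). BUB1 and TTK, kinases of the spindle checkpoint, had log2 fold changes of 0.092 and -0.0073. BUB1 spread over 11.41 and 10.85 in untreated cells, a wider gap than that between the group means, and its log2 fold change was -0.19 without untreated replicate 2. TTK lay between 11.90 and 12.04 on all arrays.

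The cyclins and CDC25C, the phosphatase that activates CDK1, all had positive log2 fold changes, with a median of 0.17. CCNB1, which encodes cyclin B1, had 12.51 and 12.34 on the untreated and 12.74 and 12.60 on the treated arrays. Its groups did not overlap, and the log2 fold change was 0.25 (SE 0.19, interval -0.20 to 0.69, limma adjusted p = 0.958). CCNA2, which encodes cyclin A2, had 13.91 and 13.73 against 13.93 and 14.00, a log2 fold change of 0.15 that was 0.057 without untreated replicate 2. CCNB2, the gene of cyclin B2, stood at 11.25 and 11.17 against 11.10 and 11.32, a log2 fold change of 0.0027 that turned negative after quantile normalization and cyclic loess. CDC25C had 8.82 and 8.60 against 8.69 and 9.11, so treated replicate 2 alone was high, and its log2 fold change of 0.19 was -0.016 without that array. Treated replicate 1 alone gave the group a median difference of 0.048 from the untreated mean, and treated replicate 2 alone 0.18.

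Of the checkpoint proteins that are not active kinases, BUB3, a partner of BUB1 and BUB1B at the kinetochore, had 14.14 and 14.04 in untreated and 14.07 and 13.83 in treated cells. Treated replicate 2 was the low array, the groups overlapped, and the log2 fold change was -0.14 (SE 0.19, interval -0.60 to 0.32, limma adjusted p = 0.985). BUB1B, which encodes the checkpoint protein BubR1, had a log2 fold change of 0.11, and MAD2L1, the gene of the CDC20 inhibitor MAD2, had 0.083. Each of these lost its positive sign with 1 array left out, BUB1B without untreated replicate 2 (-0.022) and MAD2L1 without treated replicate 1 (-3e-04).

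The partners of AURKB in the chromosomal passenger complex, which corrects faulty attachments and acts in cytokinesis, all had positive log2 fold changes (median 0.15). CDCA8, which encodes borealin, had the largest difference of the members. Its log2 values were 9.25 and 8.89 on the untreated and 9.61 and 9.80 on the treated arrays, or 9.07 ± 0.26 and 9.70 ± 0.13 (SD, n = 2 each). The treated arrays were the higher ones with no overlap, and the gap of 0.36 between the nearest arrays of the groups was like that of 0.36 between the untreated arrays. The log2 fold change was 0.64 (SE 0.21, interval 0.14 to 1.14, limma adjusted p = 0.948), and 0.45 to 0.82 with an array left out. BIRC5, which encodes survivin, stood at 11.23 and 11.14 against 11.42 and 11.25. Its highest untreated and lowest treated values were close, and the log2 fold change was 0.15 (SE 0.19, interval -0.30 to 0.59, limma adjusted p = 0.985). INCENP, the scaffold of the complex, stood at 10.21 and 9.51 against 10.09 and 9.90, inside the untreated range, and its log2 fold change of 0.14 was -0.21 without untreated replicate 2. AURKB, their catalytic partner, had -0.0077, near background, with an interval of -0.60 to 0.59 that holds the values of BIRC5 and INCENP.

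Among the 6 kinesins, 4 log2 fold changes were negative and 2 positive, with a median of -0.11. KIF18A, a plus-end motor that dampens chromosome oscillations, had 11.52 and 11.27 on the untreated and 11.24 and 10.95 on the treated arrays. The nearest arrays of the groups were almost level, and the log2 fold change was -0.30 (SE 0.21, interval -0.79 to 0.19, limma adjusted p = 0.949). KIF20A, a motor of the central spindle, ran the other way at 0.34, with 11.28 and 10.59 against 11.09 and 11.46. Untreated replicate 2 was the low array there, and without it the difference was -0.0026. KIF11, the motor that separates spindle poles, had -0.15, and -0.0018 without treated replicate 2. KIF2C, which depolymerizes microtubules at centromeres, had -0.16, and 0.014 without untreated replicate 1. KIF4A, a chromosome-bound motor, had -0.064, and KIF23, a motor subunit of the centralspindlin complex, 0.0014. The kinesin median was -0.15 after quantile normalization and also after cyclic loess, but -0.0011 without untreated replicate 1.

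The centromere and kinetochore genes had the widest range of differences, from -0.53 to 0.32, with 5 of 8 negative and a median of -0.060. CENPE, a kinetochore motor of the kinesin superfamily that brings chromosomes to the spindle equator, had 11.50 and 11.65 on the untreated and 11.37 and 10.72 on the treated arrays. Treated replicate 2 was far below the other 3, which lay within 0.27 of each other. The log2 fold change was -0.53 (SE 0.25, interval -1.13 to 0.073, limma adjusted p = 0.948), and -0.20 without treated replicate 2. CENPF, a large protein of the outer kinetochore, had 13.07 and 13.06 against 12.93 and 12.61, again lowest on treated replicate 2, and a log2 fold change of -0.30, which was -0.14 without that array. CENPA, the histone H3 variant that marks centromeres, had 8.94 and 9.00 against 9.39 and 9.18, higher on both treated arrays, with a log2 fold change of 0.32 (interval -0.13 to 0.77). CENPK, a subunit of the constitutive centromere network, had -0.16.

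The 4 subunits of the NDC80 complex, the microtubule-binding part of the kinetochore, differed in sign. SPC25 stood at 8.17 and 8.35 in untreated and 8.53 and 8.49 in treated cells, 0.25 higher in the mean of the treated arrays (interval -0.19 to 0.69) without overlap. NUF2 had 0.18, a value that rested on untreated replicate 2 and was 0.0014 without it. NDC80 had -0.0019 and SPC24 -0.12. Counting CENPE with the kinesins moved their median to -0.15 and that of the kinetochore group to -0.0019. The kinetochore median was 0.077 without treated replicate 2.

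The spindle microtubule binders had 2 positive and 4 negative log2 fold changes and a median of -0.030, which was 0.24 without untreated replicate 1 and -0.23 without untreated replicate 2. TPX2, the activator of AURKA on the spindle, had 11.60 and 11.44 on the untreated and 11.67 and 11.79 on the treated arrays. Its groups did not overlap, and the log2 fold change was 0.21 (SE 0.19, interval -0.23 to 0.66, limma adjusted p = 0.963). HMMR, a spindle assembly factor, had the largest replicate gap of the members, with 10.92 and 9.90 in untreated cells against 10.34 and 10.21 in treated cells. Both treated values lay inside the untreated range, and the log2 fold change of -0.13 was 0.38 without untreated replicate 1 and -0.64 without untreated replicate 2. ASPM, a spindle pole protein, had -0.17 with both treated arrays lower. NUSAP1, a microtubule bundler, had 0.13, and 0.0024 without treated replicate 1. PRC1, the bundler of the spindle midzone, had -0.036, and DLGAP5, which stabilizes kinetochore fibres, -0.024.

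At the anaphase step, ESPL1, which encodes the cohesin-cutting protease separase, had 9.63 and 9.42 on the untreated and 9.94 and 9.91 on the treated arrays. Both treated arrays were higher, by 0.28 between the nearest arrays, while the untreated arrays were 0.21 apart. The log2 fold change was 0.40 (SE 0.19, interval -0.048 to 0.84, limma adjusted p = 0.948), and 0.29 to 0.50 with an array left out. CDC20, the activator of the anaphase-promoting complex, had the closest replicates of the members, at 11.99 on each untreated array and 12.11 and 12.12 on the treated arrays. Its log2 fold change was 0.13 (SE 0.18, interval -0.30 to 0.55, limma adjusted p = 0.985). The SE is larger than the replicate spread because limma moderates each gene's variance with that of all probe sets. UBE2C, the ubiquitin-conjugating enzyme of the complex, had 0.048, PTTG1, which encodes securin, 0.047, and SGO1, the protector of centromeric cohesion, -0.036. The group had 4 of 5 positive and a median of 0.048.

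Chromosome structure genes and the proliferation marker MKI67 had 1 positive and 3 negative log2 fold changes, with a median of -0.12. NCAPG, a condensin I subunit, had 12.82 and 12.66 in untreated and 12.67 and 12.38 in treated cells. Treated replicate 1 and untreated replicate 2 were level, and the log2 fold change was -0.22 (SE 0.20, interval -0.70 to 0.26, limma adjusted p = 0.969). NCAPH, the kleisin of the same complex, had -0.16, and its untreated replicate 1 (12.06) was the array that stood apart. MKI67 had 13.69 and 13.78 against 13.74 and 13.55, with overlap, and a log2 fold change of -0.089 (SE 0.19, interval -0.54 to 0.36, limma adjusted p = 0.997). TOP2A, the topoisomerase that untangles sister chromatids, had 13.38 and 13.49 against 13.54 and 13.36, a log2 fold change of 0.015 (SE 0.19, interval -0.43 to 0.46, limma adjusted p = 0.998) that turned negative after quantile normalization and cyclic loess. The treated range of TOP2A thus spanned the untreated one.

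**Figure D5:**
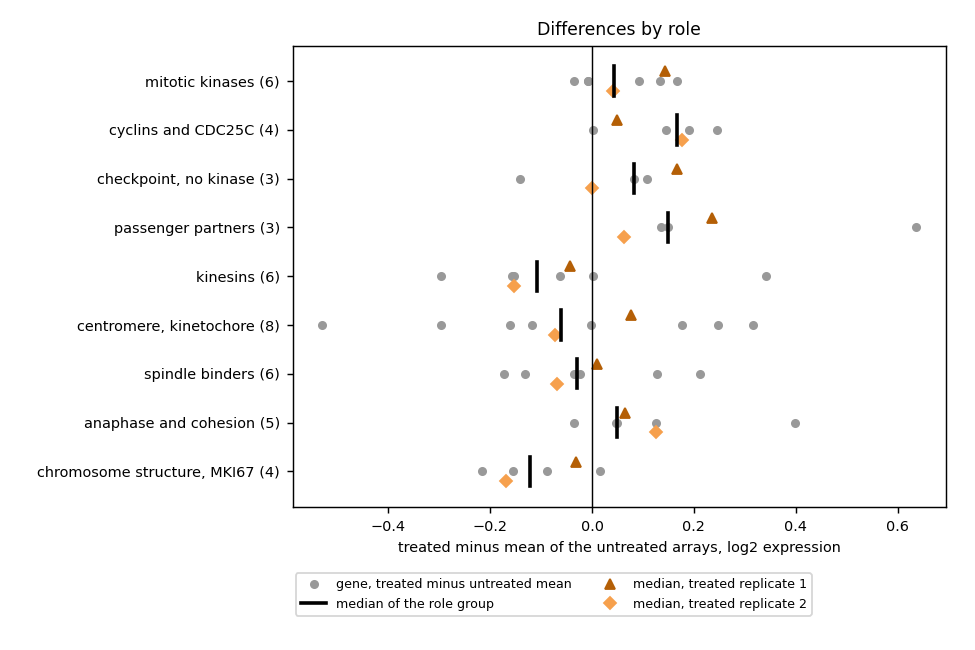
Treated minus untreated log2 difference (x axis) for each gene (grey circles), the median of each role group (black bars) and the group medians of treated replicate 1 (triangles) and treated replicate 2 (diamonds) against the untreated mean; numbers in brackets count genes. All 9 medians lie between -0.12 and 0.17.

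Set side by side, the role medians ran from -0.12 for chromosome structure to 0.17 for cyclins and CDC25C. None of the groups held a gene past the test, and differences between the groups were not tested. Of the 20 kinase, kinesin and kinetochore genes, treated replicate 1 lay above the untreated mean for 11 and treated replicate 2 for 8. For the kinases the treated arrays had medians of 0.14 and 0.042 above the untreated mean, for the kinesins -0.044 and -0.15, and for the kinetochore genes 0.077 and -0.072, so on the last group the treated arrays disagreed in sign. The checkpoint group had 0.17 and -3e-04.

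Other genes of the pathway were read from lists set up with earlier results of these data known, and none of the 118 measured passed. The 2 genes with the smallest p of each list are named. Of the 118, 1 was at an unadjusted limma p under 0.05 in the higher direction and 1 in the lower. Of all probe sets 2.2% and 2.88% were. In all, 76 were positive and 42 negative, with a median log2 fold change of 0.057, against 0.040 for named genes above background. Genes of the complexes that hold and condense chromosomes, the condensin and cohesin list, were negative in 13 of 18 (median -0.081). In 13 of the 18 treated replicate 2 was the lowest array, and treated replicate 1 alone lay above the untreated mean for 13. CDCA5, the gene of the cohesin protector sororin, had 0.48 (interval -0.16 to 1.12), which was 0.13 without untreated replicate 2. SGO2, a centromere cohesion protector, had -0.39 (interval -0.92 to 0.14), and -0.22 without untreated replicate 1 or without treated replicate 2. Among 27 other kinetochore genes 17 were positive (median 0.020). CENPC, which links centromeric chromatin to the outer kinetochore, had 8.71 ± 0.11 in untreated and 8.11 ± 0.35 in treated cells (SD, n = 2 each). Its log2 fold change was -0.60 (interval -1.14 to -0.060, limma adjusted p = 0.948), and CENPC had an unadjusted p under 0.05. SKA1, a microtubule-binding kinetochore gene, had 0.42 (interval -0.040 to 0.88).

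In the list of centrosome and spindle assembly 13 of 17 were positive (median 0.13), with TACC3, a spindle protein bound by Aurora A, at 0.37 (interval -0.066 to 0.81) and CEP192, a centrosome scaffold, at -0.35 (interval -0.78 to 0.081). Of 17 genes of the anaphase-promoting complex and its regulators 13 were positive (median 0.068), with the subunit gene ANAPC5 at 0.28 and the inhibitor gene FBXO5 at 0.36. Both were lowest on untreated replicate 2, and without it ANAPC5 had 0.081 and FBXO5 -0.070. In cytokinesis 6 of 8 were positive (median 0.060), with KIF14, a midbody kinesin, at -0.55 (interval -1.14 to 0.053) and SEPTIN9, a septin filament gene, at 0.17. Like CENPE and CENPF, KIF14 and CENPC were lowest on treated replicate 2, and without it had -0.22 and -0.35. SEPTIN9 had 0.041 without untreated replicate 1.

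The regulators of mitotic transcription were positive in 10 of 14 (median 0.094). LIN37, a MuvB subunit, had 7.90 ± 0.40 in untreated and 8.69 ± 0.33 in treated cells (SD, n = 2 each). Its log2 fold change was 0.79 (interval 0.15 to 1.42, limma adjusted p = 0.948), with an unadjusted p under 0.05, and 0.51 without untreated replicate 2. LIN37 was above the array's own background limit on 3 of 4 arrays. On untreated replicate 2 it had 7.61, under the raised limit of 7.64. LIN54, the CHR-binding subunit, had 0.42 (interval -0.019 to 0.85). FOXM1, the forkhead factor of the G2/M programme, was chosen for mention after its values were seen, and had 0.090. Of 17 gatekeepers of the G2/M step 12 were positive (median 0.080). CHEK1, the DNA damage checkpoint kinase, had -0.41 (interval -0.84 to 0.025), and GADD45B, a stress-induced gene, was above background only on treated replicate 1, at 6.81 ± 0.35 and 7.31 ± 0.14 (SD, n = 2 each). The difference of 0.50 for GADD45B was 0.25 without untreated replicate 2.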

How the data were processed

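The authors deposited 1 table of log2 expression per probe set and array, a scale read from its values. Per the submitters' processing notes it was made with RMA in Transcriptome Analysis Console 4.0.1.36. RMA equalizes the arrays' distributions, which would hide a shift common to most transcripts, but the tested probe sets were not fully equalized. Both treated arrays lay above both untreated ones for 20.9% of probe sets above background, and below for 11.5%. After a further quantile normalization these shares were 15.9% and 16.1%. Trizol extraction and whole-transcript labelling are named per the labels' protocols. Of 24351 probe sets 2903 controls were left out and 21448 tested without a filter; 17709 had 1 symbol in the platform annotation, 0 several and 3739 none, and all 17709 gene identifiers matched RefSeq. For 20 symbols with several probe sets the brightest was used. The background limit is the 95th percentile of 612 negative controls.

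Groups were compared in R 4.3.3 by moderated linear models, limma 3.58.1 (lmFit, eBayes; two-sided, Benjamini-Hochberg; 2 residual and 4.90 prior degrees of freedom), tested on simulated data. With 2 against 2 arrays an exact permutation test cannot go below 0.333. The members, role groups and lists were chosen with earlier results of these data known, so they have no list test. Each array value is given for the member with the smallest p of each role and for CDK1, CCNB1, PLK1, AURKA, AURKB, CDC20, BIRC5, MKI67 and TOP2A; those of other members are added where a statement rests on them. From each other list the 2 genes with the smallest p are named. Alternatives were quantile, cyclic loess and median scaling, filters on dim probe sets, trended and robust moderation, the replicate number as a block, averaged probe sets and each array left out. Motif searches used Python 3.11.15.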

Additional observations from a re-analysis of the deposited data

How the results depend on the processing

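No member and no other probe set passed the limma test under any setting; the smallest adjusted p of a member over all settings was 0.34, and 1089 probe sets were at an unadjusted p under 0.05. That count was 509 and 550 with probe sets above background or above the median only, since fewer were tested, and 690 to 2444 with an array left out. Members at that level numbered 3 under these filters and with trended, robust moderation. With the background filter this was 3 of 45 members beside 509 of 9960 probe sets. With the replicate block 1079 probe sets and 1 member were at that level and 0 were called. Same-numbered arrays did not deviate together over all probe sets (correlation -0.00085). For the members the number 2 array was the lower one for 35 of 45 in the untreated and 31 of 45 in the treated group. What the numbers stand for was not tested. Members with both treated arrays below both untreated ones numbered 4, but 10 after quantile normalization and 12 after cyclic loess. With an array left out, which loosens this criterion, they numbered 8 to 18, and those above 14 to 25. Without untreated replicate 2 they were 18 below and 14 above, beside 32.1% and 35.6% of probe sets above background. For the other arrays left out no such share is given here, so those counts are not a result about the members. The cause was not tested.

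With an array left out the lone array of a group is assumed to vary like the others. The median of the members was then -0.036 to 0.13, of kinases 0.042 to 0.14, of cyclins and CDC25C 0.048 to 0.27, of passenger partners 0.062 to 0.49, of kinetochore genes -0.072 to 0.077, of spindle binders -0.23 to 0.24, of checkpoint proteins -0.022 to 0.17, of kinesins -0.16 to -0.0011, of anaphase genes 0.039 to 0.13 and of chromosome structure genes -0.17 to -0.032. Only 7 of the alternatives, the 3 scalings and the 4 arrays left out, could move a member's log2 fold change. Of the 45 members 23 kept their sign under these 7 and 22 did not. Of the 23, CDC20, CDCA8 and ESPL1 shrank by less than 1.5 times with an array left out and the other 20 by more. Normalization turned CCNB2 (quantile -0.036, loess -0.037), KIF23 (-0.016, -0.036), TOP2A (-0.019, -0.014) and NDC80 (0.0010 after median centring). With an array left out the log2 fold changes that turned were -0.27 to 0.25 for AURKB, -0.19 to 0.37 for BUB1, -0.077 to 0.062 for TTK, -0.022 to 0.24 for BUB1B, -0.0003 to 0.17 for MAD2L1, -0.11 to 0.11 for CCNB2, -0.016 to 0.40 for CDC25C, -0.21 to 0.49 for INCENP, -0.0026 to 0.69 for KIF20A, -0.14 to 0.14 for KIF23, -0.33 to 0.014 for KIF2C, -0.37 to 0.050 for CENPK, -0.11 to 0.10 for NDC80, -0.64 to 0.38 for HMMR, -0.24 to 0.16 for PRC1, -0.28 to 0.23 for DLGAP5, -0.039 to 0.13 for UBE2C, -0.038 to 0.13 for PTTG1, -0.35 to 0.28 for SGO1, -0.34 to 0.025 for NCAPH, -0.18 to 0.0059 for MKI67 and -0.077 to 0.11 for TOP2A. No member had several probe sets, so averaging them changed nothing.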
